A study of Mus musculus with 12 samples.

Results

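The glutathione S-transferases (Gst and Mgst genes), UDP-glucuronosyltransferases (Ugt) and sulfotransferases (Sult) of mouse liver were followed through 8 h of endoplasmic reticulum (ER) stress. A gene entered the set by its symbol in the platform annotation of the array, provided that at least 1 probeset named this gene alone, and its brightest such probeset stood for it. Of 18193 genes with a probeset of their own, 46 were members. They comprised 20 cytosolic, mitochondrial and other soluble Gst genes, 3 Mgst genes of membrane-bound transferases, 13 Sult genes and 10 Ugt genes. No Ugt1 gene was among them, because the 3 bright probesets of that locus each name 8 Ugt1a genes that share exons. In 38 members the level lay above the median of the array in at least 1 group. The other 8, namely Gsto2, Gstt4, Mgst2, Sult1c1, Sult1e1, Sult2b1, Sult4a1 and Sult6b1, lay below it in all 4 groups, with group means of 3.06 to 4.65.

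The 4 groups held 3 animals each, with 1 array per animal. Wild-type mice (Atf6a +/+) or Atf6a-/- mice, which lack the ER stress sensor ATF6α, received tunicamycin (TM) at 2 mg/kg by intraperitoneal injection or only its vehicle, 150 mM dextrose, and liver was taken 8 h later. TM blocks N-linked glycosylation and so disturbs protein folding in the ER. The labels call the age and gender of the animals variable and name no strain for these arrays, and the liver was homogenized whole, so that fewer cells of a type and less RNA per cell cannot be told apart. All values are log2 intensities, and a difference of 1 is a 2-fold change.

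Phase II enzymes attach a polar group to drugs, steroids, bile acids, hormones and products of lipid peroxidation, which makes them easier to excrete. Glutathione S-transferases use glutathione, UDP-glucuronosyltransferases use UDP-glucuronic acid, and sulfotransferases use the activated sulfate PAPS. Not every Ugt member uses UDP-glucuronic acid, since Ugt3a1 transfers N-acetylglucosamine. UDP-glucuronosyltransferases sit in the ER membrane with their active site in the lumen, most Gst and Sult enzymes are cytosolic, and hepatocytes are rich in all of them. Nuclear receptors such as CAR and PXR, the aryl hydrocarbon receptor, PPARα and the oxidant sensor NRF2 are known to control many of these genes, and several Ugt, Sult and Gst genes differ between male and female mouse liver.

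The promoters of the members were read because the set contains known targets of NRF2 and because the treatment engages factors that bind ER stress elements. RefSeq promoters (build GRCm38.p6) were at hand for 41 of the 46 members, 53 promoters in all, and the 250 bases before each start were searched on both strands. The promoters of Gstk1 and Ugt2a3, which fell in both genotypes, and of Gstp3, the member that rose, are shown whole, in lower case because none of the motifs searched was found in them.
Gstk1 promoter, chr6:42245685-42245934, plus strand: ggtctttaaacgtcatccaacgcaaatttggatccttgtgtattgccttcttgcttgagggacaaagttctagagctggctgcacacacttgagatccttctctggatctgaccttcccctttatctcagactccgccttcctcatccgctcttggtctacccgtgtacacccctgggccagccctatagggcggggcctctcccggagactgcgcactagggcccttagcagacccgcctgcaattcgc
Ugt2a3 promoter, chr5:87337196-87337445, minus strand: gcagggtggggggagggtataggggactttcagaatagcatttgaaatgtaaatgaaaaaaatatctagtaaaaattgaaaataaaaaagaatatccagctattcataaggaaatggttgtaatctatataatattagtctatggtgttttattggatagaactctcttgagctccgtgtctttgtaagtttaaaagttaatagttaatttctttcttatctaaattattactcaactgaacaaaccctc
Gstp3 promoter, chr19:4059448-4059697, minus strand: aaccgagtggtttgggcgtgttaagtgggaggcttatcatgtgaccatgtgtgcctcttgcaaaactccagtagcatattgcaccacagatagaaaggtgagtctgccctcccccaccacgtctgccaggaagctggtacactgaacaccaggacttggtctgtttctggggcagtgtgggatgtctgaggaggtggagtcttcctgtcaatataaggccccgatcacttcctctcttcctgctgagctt

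The core of the antioxidant response element that NRF2 binds, TGACNNNGC, was found in 4 of the 53 promoters of members, against 10.2% of the 32851 promoters of the table. These were promoters of Gsta3, Gstm5, Gstm7 and Mgst1, the last 2 of which have 2 promoters each in the table, 1 with and 1 without the core. A stretch of 60 bases around each match is shown with the match in capitals. The match began 121 bases before the start in Gsta3, 42 in Gstm5, 129 in Gstm7 and 56 in Mgst1, where it lies on the opposite strand. By their brightest probesets, Gstm5 and Gstm7 fell with TM in Atf6a-/- livers and Gsta3 and Mgst1 were not called in either genotype.
Gsta3 stretch, chr1:21240438-21240497, plus strand: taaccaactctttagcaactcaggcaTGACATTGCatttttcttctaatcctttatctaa
Gstm5 stretch, chr3:107895786-107895845, plus strand: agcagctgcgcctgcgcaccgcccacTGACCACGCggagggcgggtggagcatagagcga
Gstm7 stretch, chr3:107931710-107931769, minus strand: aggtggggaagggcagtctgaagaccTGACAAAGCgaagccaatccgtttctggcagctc
Mgst1 stretch, chr6:138140445-138140504, plus strand: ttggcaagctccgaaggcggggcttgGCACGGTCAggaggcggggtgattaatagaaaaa

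The ER stress element, CCAAT and CCACG spaced by 9 bases, was in 0 of the 53 promoters and in 0.113% of all. The related ERSE-II, ATTGG and CCACG spaced by 1 base, was in 0 against 0.0304%. The unfolded protein response element TGACGTGG was in 1, that of the dim gene Sult2b1, against 0.563%, and the CHOP and ATF4 element TGATGNAAT was in 1, that of the dim gene Sult1e1, against 0.816%. A sequence bound by HNF4, CAAAGTCCA, was in 0 against 0.384%. These matches are letters in a window, and no binding was measured here.

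The deposited values were made by RMA, which normalizes the arrays together. Array medians of 4.98 to 5.11 therefore cannot show that the overall signal was alike. Arrays of 1 group correlated at 0.9866 to 0.9958 across probesets. The mean of 7 hepatocyte markers lay between 12.97 and 13.25 in every array, although 1 of them, Ass1, was at group means of only 5.73 to 5.94. The probeset of Atf6 read 8.74 to 9.47 in wild-type and 7.03 to 7.79 in Atf6a-/- livers with vehicle, and 10.75 to 11.16 and 9.76 to 10.50 with TM. The genotypes did not overlap under either treatment, yet neither difference was called (limma adjusted p = 0.184 and 0.0905), and which part of the transcript it reads was not analysed here. In each group 1 array had Y-linked signal and 2 had not. It was replicate 2 of the vehicle and replicate 1 of the TM group in wild-type animals, and replicate 3 of the vehicle and replicate 2 of the TM group in Atf6a-/- animals.

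Conjugation genes fell with TM far more often than they rose. A gene was called where the limma p, adjusted by Benjamini-Hochberg over all 45037 probesets tested, was under 0.05 and the change was over 1.5-fold (0.585 on the log2 scale). In wild-type animals, 5 of the 46 members were called lower, Gsta4, Gstk1, Sult1b1, Ugt2a3 and Ugt2b35, against a background of 6.90% of all genes and 10.1% of genes not below the median. All 5 were among the 38 members not below the median, and their number is near the 10.1% share. None was called higher, against 8.92% and 13.2%. In Atf6a-/- animals, 13 members were called lower, against 8.21% of all genes and 12.0% of those not below the median, and 1, Gstp3, was called higher, against 13.1% and 19.4%. Gsta4, Gstk1, Sult1b1 and Ugt2a3 were called lower in both genotypes. For the 0 called higher in wild-type animals, limma gave 1 member higher at an unadjusted p under 0.05 and no fold limit, Gsto2. Over 1.5-fold, neither limma without adjustment nor the methods' t-test with or without it called any member higher.

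The shift was broad and mostly small. The median difference of the 38 members not below the median was -0.38 with TM in wild-type and -0.58 in Atf6a-/- animals. Over all 12187 genes not below the median it was -0.066 and -0.078. Of the 38, 30 had lower mean levels with TM in wild-type and 34 in Atf6a-/- livers. By sign, 30 were lower in both genotypes, against 48.3% of the 12187 genes. The 8 dim members were called in no comparison.

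**Figure D1:**
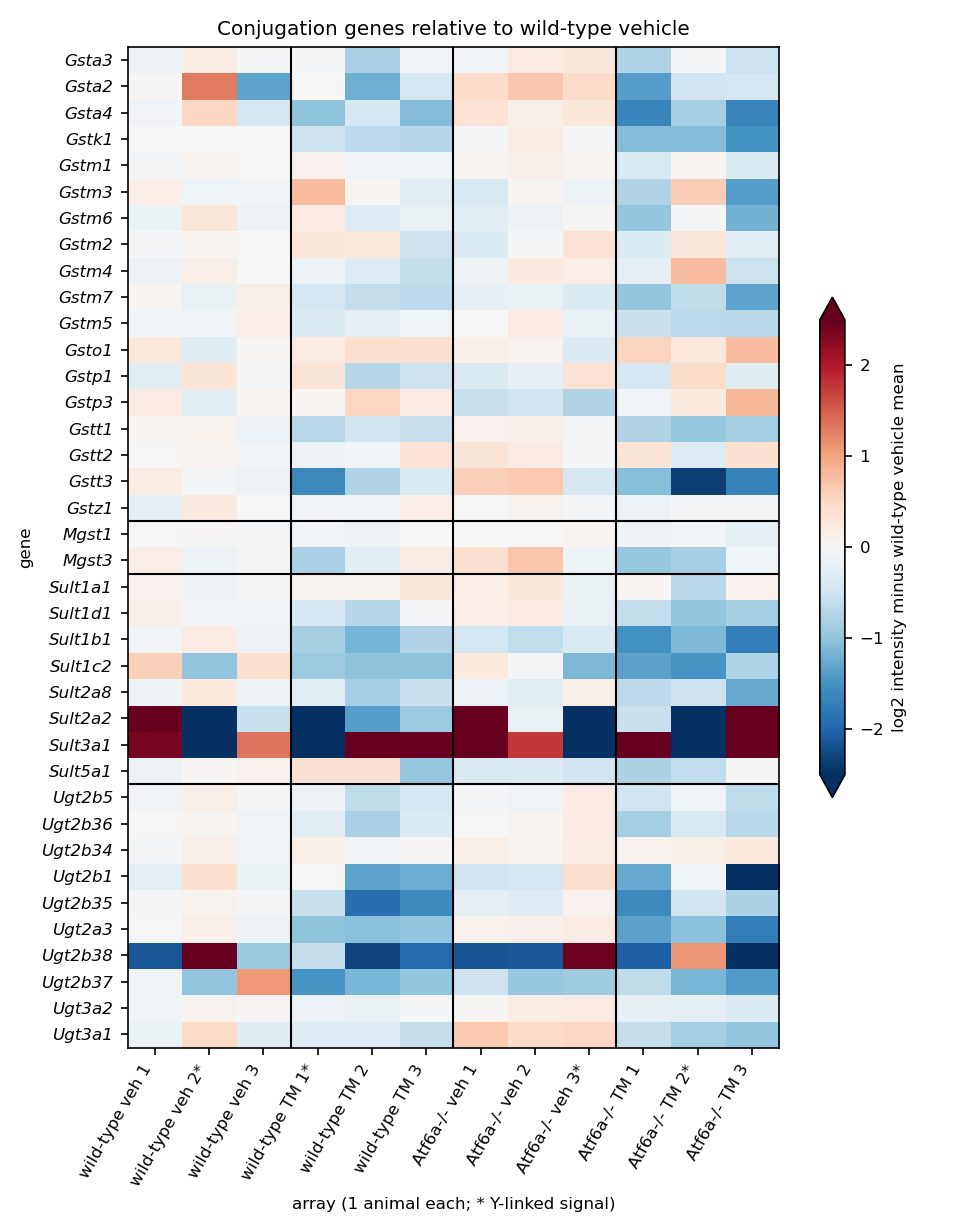
Level of the 38 members not below the median in each of the 12 arrays, as the log2 intensity minus the mean of the wild-type vehicle group (colour, blue lower and red higher, with values past 2.5 at the end of the scale). Rows are genes by class (Gst, Mgst, Sult, Ugt), columns are animals by group, and an asterisk marks the 4 arrays with Y-linked signal. Gstk1, Ugt2a3 and Sult1b1 are blue in all 6 TM arrays, while Sult2a2, Sult3a1 and Ugt2b38 follow the asterisks.

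Some markers of other liver cells were also called with TM. The mean of 6 Kupffer cell and macrophage markers was 8.22 to 9.14 with vehicle and 8.23 to 8.52 with TM in wild-type livers, and 8.32 to 8.98 and 7.77 to 8.35 in Atf6a-/- livers, with 0 and 3 of the 6 called lower. The mean of 5 stellate cell markers was 8.31 to 9.03 and 8.11 to 8.37 in wild-type, and 8.42 to 8.70 and 7.97 to 8.28 in Atf6a-/- livers, with 1 called lower in each genotype. The vehicle and TM ranges of both lists overlapped in wild-type livers, and in Atf6a-/- livers those of the stellate list alone were apart. Beside all counts of this paragraph, 6.90% of all genes were called lower in wild-type and 8.21% in Atf6a-/- livers. Among genes not below the median, 10.1% and 12.0% were called lower and 13.2% and 19.4% higher. These lists are too short for a close comparison with such shares. The mean of 4 cholangiocyte markers was 5.51 to 5.61 and 5.29 to 5.33 in wild-type, and 5.47 to 5.64 and 5.12 to 5.26 in Atf6a-/- livers, with 0 and 1 called lower. The mean of 3 lymphocyte markers was 5.38 to 5.87 and 5.21 to 5.30 in wild-type, and 5.41 to 5.74 and 5.11 to 5.22 in Atf6a-/- livers, with 0 and 1 called lower. Krt7 of the cholangiocyte list, Ms4a1 of the lymphocyte list and Hba-a1 of the 2 erythroid markers lay below the median of the array in all groups, and no erythroid marker was called. The mean of 5 endothelial markers ranged from 8.05 to 9.15 with vehicle and from 8.34 to 8.64 with TM, with none called lower and 1 called higher in Atf6a-/- livers. The part of such cells in the fall of the conjugation genes was not tested. Of the 7 hepatocyte markers, none was called lower in either genotype and 1 was called higher in each.

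Among the soluble glutathione S-transferases, the clearest fall was that of Gstk1, the kappa-class enzyme of mitochondria and peroxisomes. Its level was 12.14, 12.15 and 12.14 in the wild-type vehicle animals and 11.64, 11.49 and 11.44 with TM. In Atf6a-/- animals it was 12.12, 12.32 and 12.10 with vehicle and 11.06, 11.06 and 10.66 with TM. No TM animal reached a vehicle animal, and the Atf6a-/- TM animals all lay below the wild-type TM animals. In wild-type livers the difference was -0.62 (standard error 0.12, limma adjusted p = 0.00237), and in Atf6a-/- livers it was -1.26 (0.12, adjusted p = 8.54e-06). Without wild-type TM replicate 3 the wild-type call was lost, since the difference of -0.58 was then under 1.5-fold.

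Gsta4, an alpha-class enzyme that conjugates hydroxynonenal from lipid peroxidation, was 10.26, 10.85 and 9.92 in wild-type vehicle and 9.35, 9.92 and 9.25 in wild-type TM animals. The groups touched there, at 9.92. In Atf6a-/- livers it was 10.71, 10.49 and 10.62 with vehicle and 8.72, 9.50 and 8.70 with TM, with no overlap. The differences were -0.84 (standard error 0.26, limma adjusted p = 0.0423) and -1.63 (0.26, adjusted p = 0.000494). The wild-type call was lost in 7 of the 12 fits that leave out 1 array, which are those without wild-type vehicle replicate 1 or 2, wild-type TM replicate 1 or 3, or any of the 3 Atf6a-/- vehicle arrays, and the call in Atf6a-/- animals was kept in all 12.

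In the theta class, 0 of the 3 members not below the median were called lower in wild-type livers and 2 in Atf6a-/- livers. The shares of all genes not below the median were 10.1% and 12.0%. Gstt3 was 10.42, 10.18 and 10.10 in wild-type vehicle animals and 8.62, 9.49 and 9.87 with TM, a difference of -0.90 that was not called (limma adjusted p = 0.123). In Atf6a-/- animals it was 10.83, 10.89 and 9.83 with vehicle and 9.16, 7.87 and 8.54 with TM, and fell by 1.99 (standard error 0.37, adjusted p = 0.00148), about 3.97-fold. Gstt1, which conjugates small halogenated compounds, fell by 0.91 in Atf6a-/- livers, from 12.72 ± 0.09 (SD, n = 3) to 11.80 ± 0.09. In wild-type livers its difference of -0.57 had a limma adjusted p of 0.00168 and missed the call by its size alone. Gstt2 was 10.94 ± 0.07 and 10.99 ± 0.26 in wild-type and 11.10 ± 0.18 and 11.07 ± 0.39 in Atf6a-/- livers, and was not called.

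Of the 7 mu-class genes, 2 were called lower, both in Atf6a-/- livers alone, beside 12.0% of all genes not below the median there. Gstm5 fell by 0.66 (standard error 0.11, limma adjusted p = 0.000783), from 9.30 ± 0.18 to 8.64 ± 0.07, and Gstm7 by 0.73 (0.15, adjusted p = 0.00312), from 9.48 ± 0.09 to 8.75 ± 0.34. Their wild-type differences were -0.23 and -0.56. Gstm7 lost its call without Atf6a-/- TM replicate 3 and Gstm5 without Atf6a-/- vehicle replicate 2. Gstm1 was 13.63 ± 0.05 and 13.59 ± 0.11 in wild-type livers and 13.71 ± 0.03 and 13.40 ± 0.24 in Atf6a-/- livers, with differences of -0.03 (95% confidence interval -0.28 to 0.21) and -0.31 (-0.56 to -0.07). The other probesets of Gstm1 differed by -0.37, -0.54 and -0.52 in Atf6a-/- livers (limma adjusted p = 0.0429, 0.00779 and 0.00659), all under 1.5-fold. In wild-type livers they differed by -0.06, -0.18 and -0.22. Gstm1 was thus called by no probeset, and Gstm2, Gstm3, Gstm4 and Gstm6 were not called either.

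Gstp3, a pi-class gene, was the member that rose. It read 8.52, 8.56 and 8.32 in Atf6a-/- vehicle and 9.01, 9.31 and 9.89 in Atf6a-/- TM animals, a difference of 0.94 (standard error 0.21, limma adjusted p = 0.00457). In wild-type livers it was 9.27, 8.80 and 9.13 with vehicle and 9.11, 9.60 and 9.27 with TM, and the difference of 0.26 was not called. The TM groups of both genotypes overlapped, and the Atf6a-/- vehicle animals lay below all wild-type vehicle animals (-0.60, limma adjusted p = 1). Gstp1 averaged 14.08 ± 0.30 and 13.78 ± 0.56 in wild-type and 14.01 ± 0.38 and 13.99 ± 0.48 in Atf6a-/- livers, with no call. Gsto1, which reduces dehydroascorbate, differed by 0.34 and 0.57, the second with a limma adjusted p of 0.0256 but under 1.5-fold.

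Most other Gst and Mgst genes were not called. Gstz1, the maleylacetoacetate isomerase of tyrosine breakdown, differed by -0.00 (95% confidence interval -0.26 to 0.25) in wild-type and -0.10 (-0.35 to 0.16) in Atf6a-/- livers. Mgst1, a membrane-bound glutathione transferase and peroxidase, differed by -0.07 (-0.24 to 0.11) and -0.16 (-0.34 to 0.01). A dim second probeset of Mgst1 was called lower in wild-type livers, at 5.17 with vehicle and 4.52 with TM. Mgst3 was called lower in Atf6a-/- livers, from 9.84, 10.14 and 9.31 to 8.50, 8.61 and 9.34, where the groups overlapped, and 4 of 12 fits without 1 array lost the call, namely those without Atf6a-/- vehicle replicate 1 or 2 or Atf6a-/- TM replicate 1 or 2. For Gsta3, which conjugates aflatoxin epoxide in mice, the brightest probeset differed by -0.31 and -0.59 and was not called, while its second probeset fell by 1.24 in Atf6a-/- livers (limma adjusted p = 0.00744). Gsta2 differed by -0.54 and -1.31 with a standard error of 0.52, and was not called.

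**Figure D2:**
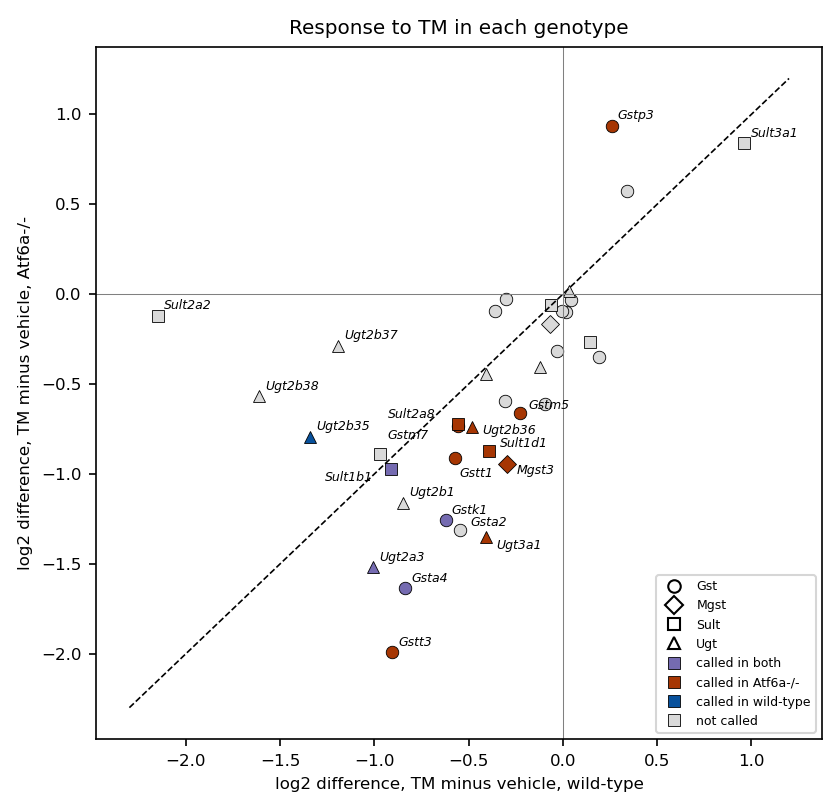
Difference with TM in wild-type animals (x axis) against that in Atf6a-/- animals (y axis) for the 38 members not below the median, both as log2 TM minus vehicle from limma. Symbols mark the class and colours the call, and the dashed line marks equal differences. Gsta4, Gstk1, Sult1b1 and Ugt2a3 are called in both genotypes, and Gstt3, at -0.90 and -1.99, lies lowest.

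Of the 10 Ugt genes, 2 were called lower in wild-type and 3 in Atf6a-/- livers, beside 10.1% and 12.0% of all genes not below the median. The medians of the 10 were -0.67 and -0.65, beside -0.066 and -0.078 over those genes. Ugt2a3, which glucuronidates bile acids, was 11.78, 11.93 and 11.66 in wild-type vehicle and 10.79, 10.75 and 10.80 in wild-type TM animals. In Atf6a-/- livers it was 11.90, 11.92 and 12.01 with vehicle and 10.45, 10.76 and 10.06 with TM. The groups were far apart in both genotypes, by -1.01 (standard error 0.14, limma adjusted p = 0.000328) and -1.52 (0.14, adjusted p = 9.51e-06). Both calls were kept without any single array. It is the member whose wild-type and Atf6a-/- calls also passed a 2-fold limit together.

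Ugt2b35 was called in wild-type livers alone. It was 11.95, 12.09 and 11.96 with vehicle and 11.44, 10.11 and 10.43 with TM, a difference of -1.34 (standard error 0.32, limma adjusted p = 0.00999). In Atf6a-/- livers it was 11.77, 11.67 and 12.10 with vehicle and 10.41, 11.55 and 11.20 with TM, which gave -0.79 (0.32, adjusted p = 0.0829). All TM animals lay below the vehicle animals of their genotype, and the difference between the genotypes in response was 0.55 with a limma adjusted p of 0.732. The highest TM value in each genotype was that of the array with Y-linked signal. Without wild-type TM replicate 2 the wild-type call was lost.

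Ugt3a1, which transfers N-acetylglucosamine, was 10.52, 10.35 and 10.39 in Atf6a-/- vehicle animals and 9.28, 9.03 and 8.90 with TM, a fall of 1.35 (standard error 0.18, limma adjusted p = 0.000118). In wild-type livers it was 9.70, 10.35 and 9.57 and then 9.56, 9.55 and 9.28, a difference of -0.41 that was not called (adjusted p = 0.148). With vehicle, the Atf6a-/- mean was above the wild-type mean by 0.54, which did not pass (limma adjusted p = 1). A second probeset gave -0.30 and -1.24 with TM and the same calls. Its neighbour in name, Ugt3a2, differed by -0.12 and -0.40, the second with a limma adjusted p of 0.0056 but under 1.5-fold. Ugt2b36 fell by 0.74 in Atf6a-/- livers, from 13.52 ± 0.10 to 12.78 ± 0.24, and its wild-type difference of -0.48 (adjusted p = 0.0403) was under 1.5-fold. Ugt2b5 differed by -0.41 and -0.44. Ugt2b34 differed by 0.03 (95% confidence interval -0.17 to 0.24) and 0.02 (-0.19 to 0.22). Among the members on chromosome 5, the RefSeq order (GRCm38.p6) of the Ugt2 genes is Ugt2b34, Ugt2b1, Ugt2b35, Ugt2b36, Ugt2b5, Ugt2b37, Ugt2a3 and Ugt2b38. Genes outside the set that may lie between them were not read. The Ugt1a probesets, which cannot be given to 1 gene, read between 13.20 and 13.71 in the group means and differed by -0.15 to 0.10 with TM.

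Sulfotransferases were called lower in 1 member in wild-type and in 3 in Atf6a-/- livers, out of 8 not below the median. The shares of all genes not below the median were 10.1% and 12.0%, and the wild-type count is near its share. Their median differences were -0.47 and -0.49. Sult1b1, which sulfates thyroid hormones, was 9.24, 9.50 and 9.15 in wild-type vehicle and 8.47, 8.14 and 8.54 in wild-type TM animals. In Atf6a-/- livers it was 8.85, 8.67 and 8.91 with vehicle and 7.78, 8.18 and 7.56 with TM. The groups were apart in both genotypes, by -0.91 (standard error 0.16, limma adjusted p = 0.00162) and -0.97 (0.16, adjusted p = 0.000677). The difference between these responses was -0.06, with a 95% confidence interval of -0.56 to 0.44. With vehicle the Atf6a-/- animals lay below all wild-type animals by -0.48, which did not pass (limma adjusted p = 1).

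Sult1d1, which sulfates catecholamines, fell by 0.87 (standard error 0.17, limma adjusted p = 0.00184) in Atf6a-/- livers, from 12.24, 12.27 and 11.89 to 11.45, 11.11 and 11.23. In wild-type livers the brightest probeset differed by -0.39 and was not called, while a second probeset was called lower in both genotypes, at -0.73 (adjusted p = 0.0482) and -1.51 (adjusted p = 0.000398). Sult2a8, which sulfates bile acids, differed by -0.55 in wild-type and fell by 0.72 in Atf6a-/- livers (adjusted p = 0.0197). Its call was lost without Atf6a-/- vehicle replicate 3 or Atf6a-/- TM replicate 3. Sult1a1, the main phenol sulfotransferase, was 12.81 ± 0.12 and 12.96 ± 0.13 in wild-type and 12.91 ± 0.24 and 12.64 ± 0.46 in Atf6a-/- livers, with no call. Sult1c2 differed by -0.97 and -0.89 with a standard error of 0.40, and Sult5a1 by -0.07 and -0.06, neither called. Sult1e1, the oestrogen sulfotransferase, stayed between 3.49 and 4.14 in all 12 animals, below the median of the array.

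**Figure D3:**
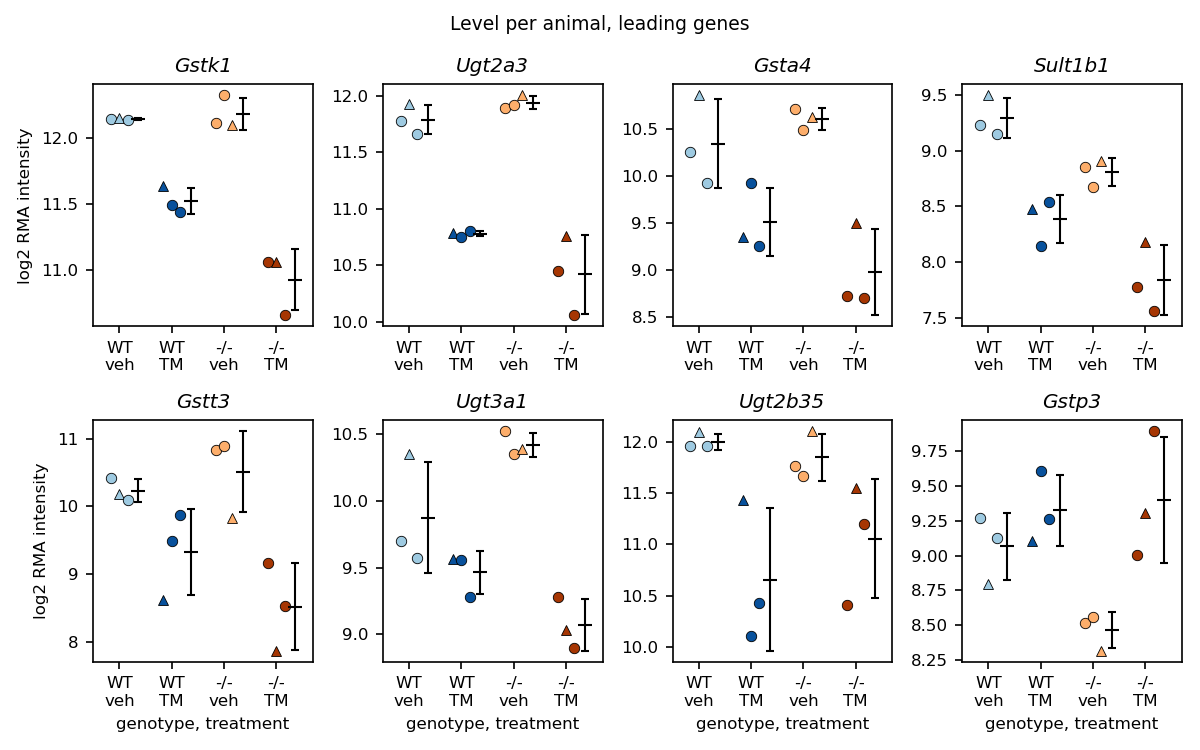
Log2 level of 8 conjugation genes in each animal, by genotype (WT wild-type, -/- Atf6a-/-) and treatment (veh vehicle). Points are animals, triangles are the arrays with Y-linked signal, and bars show the mean and SD of 3 animals. Gstk1 and Ugt2a3 are lower in every TM animal than in any vehicle animal, and Gstp3 with TM is 9.01 to 9.89 in Atf6a-/- animals against 8.32 to 8.56 with vehicle.

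The genotypes were compared next, to ask whether loss of ATF6α changed these responses. With vehicle, 0 of the 46 members were called in either direction, as were 0% of all genes. At an unadjusted p under 0.05 and no fold limit, limma gave 1 higher and 2 lower. Over 1.5-fold, limma without adjustment gave 1 lower, Gstp3. The methods' t-test, over 1.5-fold, called 0 with adjustment and 1 lower, also Gstp3, without. Under TM, Gstk1 was the 1 member called lower in Atf6a-/- than in wild-type livers, against a background of 1.53%, and 0 were called higher, against 2.89%. Among genes not below the median these shares were 2.22% and 4.29%. Its difference was -0.60 (standard error 0.12, limma adjusted p = 0.012), just past 1.5-fold. For the 0 called higher, limma gave 0 at an unadjusted p under 0.05 and the methods' t-test 0 with or without adjustment. The Gstk1 call was lost without wild-type TM replicate 1, with 0 members called, and likewise without Atf6a-/- TM replicate 3. Without Atf6a-/- TM replicate 2, 4 members were called lower, Gstk1, Gstm3, Gstm6 and Sult1b1, and without wild-type TM replicate 3, 2 were, Gstk1 and Sult5a1. The share of all genes called was not computed for fits without 1 array, so whether calls rose in general there is not known.

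The test of unequal responses, which sets the TM effect of one genotype against that of the other, called 0 members, against 1.06% of genes called higher and 0.748% called lower, or 1.58% and 1.09% of genes not below the median. At an unadjusted p under 0.05 and no fold limit, limma gave 2 higher and 6 lower. Of these, Gstp3, higher, and Gstk1 and Ugt3a1, lower, were over 1.5-fold by the calls without adjustment. Gstk1 had the smallest adjusted p, with a difference of -0.63 (standard error 0.17, limma adjusted p = 0.104), and Ugt3a1 followed with -0.94 (0.25, adjusted p = 0.113). Gstt3 was at -1.09 (0.52, adjusted p = 0.477), Gsta4 at -0.80 (0.37, adjusted p = 0.45) and Gstp3 at 0.68 (0.29, adjusted p = 0.401). Being called in Atf6a-/- livers alone therefore does not show that a member responded differently there. By sign, this difference was below 0 in 28 of the 38 members not below the median, against 47.4% of all genes not below it. Its median was -0.17 against 0.021. The genes share arrays, so these shares are a description. Without wild-type vehicle replicate 2, 1 member, Ugt3a1, was called, in a fit for which the share of all genes was not computed.

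Genes that supply the cofactors moved in both directions. Here and below, of 2 values the first is the wild-type and the second the Atf6a-/- difference. Beside the counts of these lists, 6.90% of all genes were called lower and 8.92% higher in wild-type livers. In Atf6a-/- livers the shares were 8.21% and 13.1%. Among genes not below the median they were 10.1% and 13.2%, and 12.0% and 19.4%. The lists are too short for a close comparison with these shares. For glutathione, 3 of 6 listed genes were called lower and 1 higher in wild-type livers, and 2 and 1 in Atf6a-/- livers. Gclc, the catalytic subunit of the enzyme for the first and limiting step of glutathione synthesis, fell in both, at -0.99 (standard error 0.14, limma adjusted p = 0.00032) and -0.62 (0.14, adjusted p = 0.00508), the latter call being lost without Atf6a-/- vehicle replicate 3 or Atf6a-/- TM replicate 3. Its modifier subunit Gclm fell by 0.76 in wild-type livers, and its -0.50 in Atf6a-/- livers was under 1.5-fold. Gsr, which regenerates reduced glutathione, fell in both, at -0.66 and -0.80, although its wild-type call was lost without wild-type vehicle replicate 2 or 3 or wild-type TM replicate 2 or 3. Ggct, which degrades γ-glutamyl peptides and so is no supply gene in the strict sense, rose by 1.44 and 1.05, and its call in Atf6a-/- livers was lost without replicate 1 or 3 of either Atf6a-/- group.

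For UDP-glucuronate, 1 of 5 listed genes rose and 1 fell in each genotype, and neither is a supply gene in the strict sense. Slc35b1 rose from 10.51 (range 10.35 to 10.74) to 12.41 (12.24 to 12.60) in wild-type and from 10.68 (10.39 to 10.86) to 12.12 (11.95 to 12.29) in Atf6a-/- livers, by 1.90 and 1.43. It is now known as an exchanger of ATP and ADP at the ER membrane. Gusb, the lysosomal β-glucuronidase that removes glucuronic acid, fell in both, at -0.84 and -1.27. Ugdh, which makes UDP-glucuronic acid, differed by -0.50 and -1.03 with a standard error of 0.40 and was not called, and neither was Ugp2, at -0.20 and 0.26.

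For PAPS, Papss1 stood out. This synthase of activated sulfate averaged 8.10 (range 7.97 to 8.25) with vehicle and 10.12 (9.86 to 10.39) with TM in wild-type livers, and 8.06 (7.79 to 8.28) and 8.40 (8.34 to 8.47) in Atf6a-/- livers. The wild-type TM animals lay above all others. It rose by 2.03 (standard error 0.15, limma adjusted p = 1.84e-06) in wild-type livers, while 0.34 in Atf6a-/- livers missed the call (adjusted p = 0.105). With TM, Atf6a-/- livers were below wild-type livers by -1.72 (adjusted p = 4.06e-05), and the responses by -1.68 (standard error 0.21, adjusted p = 0.00204). All of these calls were kept without any single array and without the arrays with Y-linked signal. Papss2, the other synthase, differed by -0.33 and -0.56 and was not called, nor were the PAPS transporters Slc35b2 and Slc35b3. Bpnt1, which removes the byproduct of sulfation, fell by 0.62 in Atf6a-/- livers, a call lost without Atf6a-/- vehicle replicate 3 or Atf6a-/- TM replicate 3.

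Of 10 genes for other conjugations, 1 fell in wild-type livers and 2 in Atf6a-/- livers, and none rose. Hnmt, the histamine methyltransferase, fell in both, at -1.53 and -1.93 (limma adjusted p = 0.00143 and 0.000171), and Nat1, an arylamine acetyltransferase, fell by 0.99 in Atf6a-/- livers. Tpmt, which methylates thiopurines, differed by -1.12 and -1.06 with a standard error of 0.44 and was not called. Among 6 exporters of conjugates, Abcc6 fell in both, at -0.66 and -0.85, and Abcc3, at the blood side of the hepatocyte, fell by 1.36 in Atf6a-/- livers, while Abcc2, at the canalicular side, differed by 0.05 and -0.10. Abcc6 lost its wild-type call without wild-type vehicle replicate 1.

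**Figure D4:**
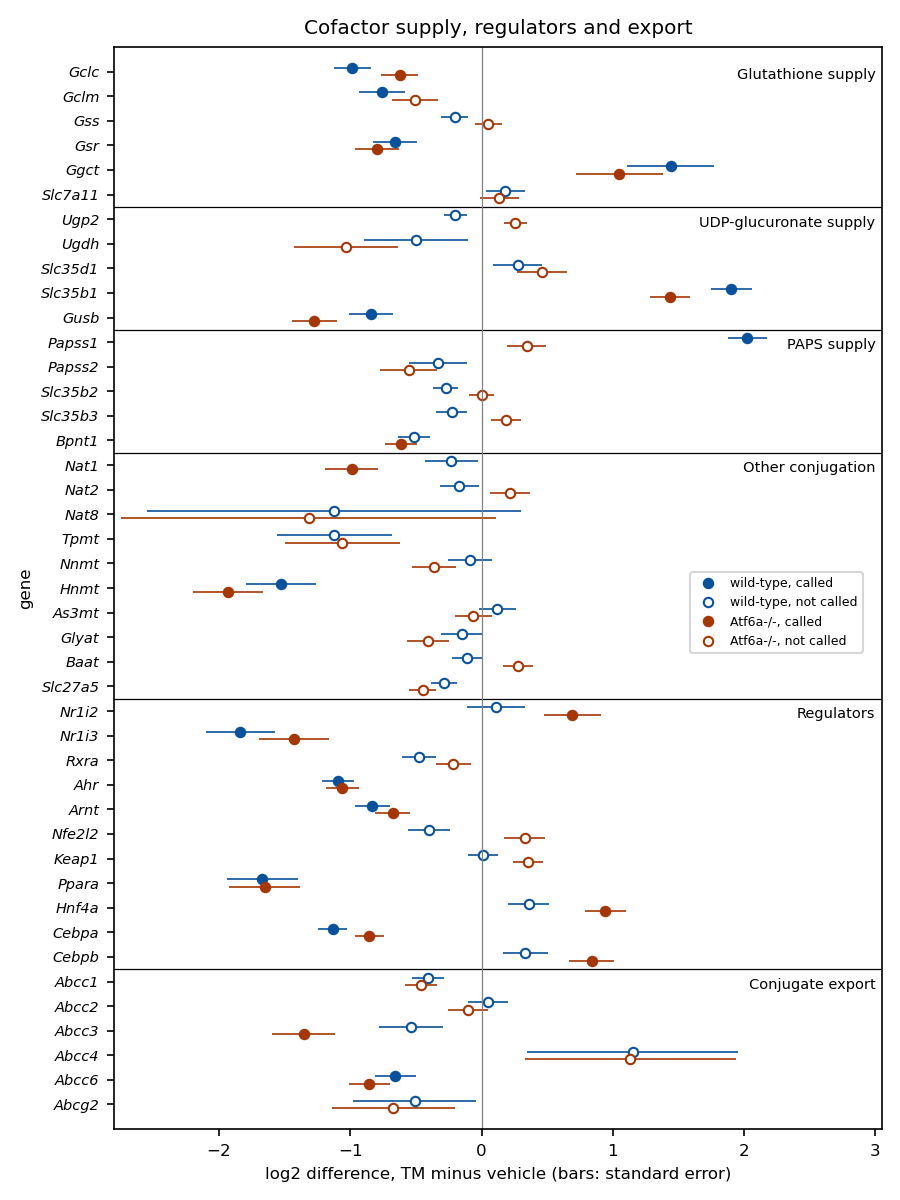
Difference with TM (log2 TM minus vehicle, x axis) for the listed genes of cofactor supply, other conjugation, regulators and export (y axis), in wild-type (blue) and Atf6a-/- (red-brown) animals, with the standard error of limma as bars. Filled points are called. Papss1 is at 2.03 in wild-type and 0.34 in Atf6a-/- animals, and Nr1i3, Ahr, Arnt, Ppara and Cebpa are called lower in both.

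Of the 11 regulators listed, 5 fell in wild-type livers and the same 5 in Atf6a-/- livers, beside 6.90% and 8.21% of all genes. In Atf6a-/- livers 3 rose, beside 13.1% of all genes. Nr1i3, which encodes CAR, fell in both, at -1.84 and -1.43 (limma adjusted p = 0.000365 and 0.00148). Ahr was at -1.09 and -1.06, its partner Arnt at -0.83 and -0.68, Ppara at -1.67 and -1.65, and Cebpa at -1.13 and -0.86. In Atf6a-/- livers Hnf4a rose by 0.94, Cebpb by 0.84 and Nr1i2, which encodes PXR, by 0.69, the last of which lost its call without the arrays with Y-linked signal and without Atf6a-/- vehicle replicate 1, 2 or 3 or Atf6a-/- TM replicate 1 or 2. Under TM, Cebpb was higher in Atf6a-/- than in wild-type livers by 0.90 (adjusted p = 0.0093), a call lost without wild-type TM replicate 2. Nfe2l2, which encodes NRF2, was higher by 0.65 (adjusted p = 0.037), but was called in 5 of 12 fits without 1 array, those without wild-type vehicle replicate 1 or 2, wild-type TM replicate 3, Atf6a-/- vehicle replicate 3 or Atf6a-/- TM replicate 2. All of these are mRNA levels, and no activity of a regulator was measured.

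Of 6 known NRF2 targets, Gclc and Gclm included, 1 rose and 3 fell in wild-type and 2 rose and 2 fell in Atf6a-/- livers. Nqo1 fell in both, at -0.93 and -1.18, Srxn1 rose by 1.15 and 1.60, Hmox1 rose by 1.25 in Atf6a-/- livers, and Txnrd1 differed by -0.02 and -0.37. Nqo1 lost its wild-type call without wild-type TM replicate 2 or wild-type vehicle replicate 3. Beside them, the members with an antioxidant core differed in wild-type and Atf6a-/- livers by -0.31 and -0.59 (Gsta3), -0.23 and -0.66 (Gstm5), -0.56 and -0.73 (Gstm7) and -0.07 and -0.16 (Mgst1).

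Several members differed with the Y-linked signal. Within vehicle and again within TM, the arrays with Y-linked signal lay above all others for 8 members, Gstm2, Gstm6, Gstp1, Sult2a8, Ugt2b1, Ugt2b35, Ugt2b38 and Ugt2b5, against a background of 1.71% of all genes. They lay below all others for 3, Gsto1, Sult2a2 and Sult3a1, against 1.72%. These splits come from 2 and 4 arrays per treatment, were defined from the data and carry no test. Sult3a1, which sulfates amines, read 3.14 to 3.76 in the 4 arrays with Y-linked signal and 8.81 to 11.90 in the other 8. Sult2a2, a hydroxysteroid sulfotransferase, read 3.44 to 4.26 and 6.23 to 11.51. In neither gene did the ranges meet.

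Ugt2b38 showed the opposite order. It was 10.48 and 9.88 in the vehicle arrays with Y-linked signal and 6.82 and 8.52 in the TM arrays with it, against 5.26 to 6.50 and 4.82 to 5.48 in the others. Ugt2b1 was 13.31 and 13.33 with vehicle and 12.92 and 12.80 with TM where Y-linked signal was present, and 12.44 to 12.73 and 10.33 to 11.67 elsewhere. Gstp1 was 14.41 and 14.44, then 14.41 and 14.53 where it was present, and 13.72 to 14.02 and 13.37 to 13.78 elsewhere. Sult2a2 also varied between animals without Y-linked signal, at 11.51 and 7.04 in the wild-type vehicle group. Standard errors of the TM difference reached 2.01 for Sult2a2, 2.76 for Sult3a1 and 1.45 for Ugt2b38 in the main fit. The spread in that fit includes the split by Y-linked signal. None of these 3 was called with TM there, nor with the Y-linked signal as a covariate.

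**Figure D5:**
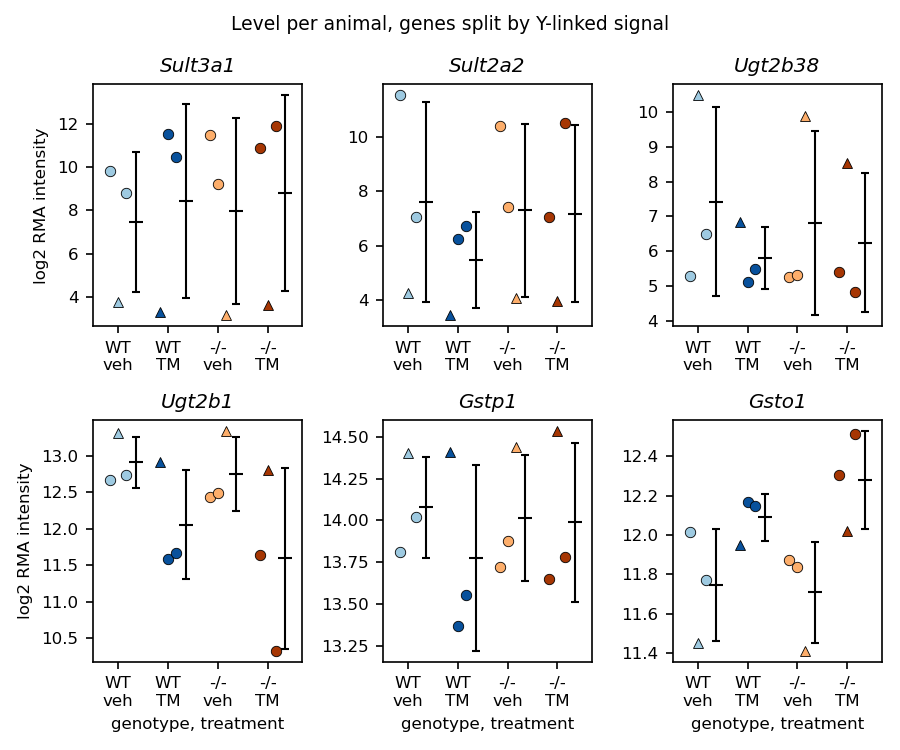
Log2 level of 6 members in each animal, by genotype and treatment as in the plot of leading genes. Triangles are the arrays with Y-linked signal, 1 per group, and bars show the mean and SD of 3 animals. Triangles lie below all circles for Sult3a1, Sult2a2 and, within each treatment, Gsto1, and above the circles of the same treatment for Ugt2b38, Ugt2b1 and Gstp1.

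With the Y-linked signal as a covariate of the fit, more members were called lower, 9 in wild-type against 7.53% of all genes and 19 in Atf6a-/- livers against 8.68%. Gstt3, Sult1c2, Ugt2b1 and Ugt2b37 joined in wild-type livers, and Gsta2, Gsta3, Gstm6, Sult1c2, Ugt2b1 and Ugt2b35 in Atf6a-/- livers. Ugt2b1 was then at -0.87 (limma adjusted p = 0.0439) and -1.14 (adjusted p = 0.0079). Under TM, 2 members were then called lower in Atf6a-/- livers, Gstk1 and Gstm6, against 1.69%. Without the 4 arrays with Y-linked signal, which left 2 animals per group, 8 and 20 members were called lower, against 9.29% and 9.66%. In that fit Gsta4 lost its wild-type call (-0.50, adjusted p = 0.151), 4 members, Gsta4, Gstm3, Gstm6 and Sult1b1, were lower in Atf6a-/- than in wild-type livers under TM (against 1.70%), and Gstk1 was not (-0.61, adjusted p = 0.0541). The response of Ugt3a1 then differed between the genotypes by -1.12 (adjusted p = 0.0431), the 1 member called, against 0.956%.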

How the data were processed

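Liver RNA of 12 mice was measured on Affymetrix mouse arrays, and samples were grouped by genotype and treatment from the labels. The authors deposited log2 intensities made by RMA with the affy package, per the labels, which also name limma. Their versions, and a genome build, are not given in the sources. Of 45101 probesets, 64 controls were left out and 45037 tested. GEO's platform annotation gives 34945 of them 1 gene, 932 several and 9160 none. All 46 members matched RefSeq by Entrez ID.

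The deposited log2 values of all 12 arrays were fitted with limma 3.58.1 in R 4.3.3, each group having its own mean, and moderated by eBayes (degrees of freedom 8 residual, 4.25 prior). TM was set against vehicle within each genotype, the genotypes against each other within each treatment, and the responses against each other, which made 5 contrasts. p-values were adjusted by Benjamini-Hochberg over all probesets of a contrast, and calls required over 1.5-fold at an adjusted p below 0.05. The procedure was tested on simulated data. The number of arrays limits the precision. That the animals of a group were separate mice is taken from the labels.

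The members and lists were chosen with earlier results of these data known. Named members were those called in any contrast, the 2 with the highest mean level per family, those with probesets that differ, those linked to the sex of the animal, and called genes of the wider lists. Some genes of the wider lists were not analysed here. Array weights, other normalizations, thresholds, probeset choices, a t-test, a replicate block and leaving out each array were tried. For the wider lists, leaving out arrays and the Y-linked covariate were chosen after seeing the data.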

Additional observations from a re-analysis of the deposited data

Results flagged for a closer look

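Among the wider pathway, Papss1 answered TM differently in the 2 genotypes, with a difference of -1.68 on the log2 scale by the test of the difference itself (limma adjusted p = 0.00204), and it was higher in 3 of 3 wild-type TM animals than in any other animal.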

How the results depend on the processing

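No called value of a member changed sign under any alternative. The main counts were 5 lower and 0 higher in wild-type, 13 lower and 1 higher in Atf6a-/- animals, and 1 lower between the genotypes under TM. A 2-fold limit left 2 lower in wild-type, 5 lower and 0 higher in Atf6a-/- animals, and 0 under TM. No fold limit gave 8 lower and 1 higher in wild-type and 2 higher in Atf6a-/- animals. The methods' t-test with adjustment gave 2, 7 lower and 0 higher, and 0, and without it 1 lower with vehicle. Unadjusted p of limma, still over 1.5-fold, gave 8 lower in wild-type, 3 under TM and 1 lower with vehicle. For the difference in response it gave 1 higher and 2 lower. The Y-linked covariate gave 9 lower in wild-type and 2 under TM, and dropping the 4 arrays that carry it 8, 20, 4 and, for the difference in response, 1. Quantile and cyclic loess normalization each gave 2 higher in Atf6a-/- animals, Gsto1 and Gstp3. Centring on Btf3 and Ppia, for which Ppia's probeset is shared with Gm9234, gave 0 under TM, as did fits of the arrays of that contrast alone. Gsta4's wild-type call was lost with cyclic loess and with the 6 arrays of the contrast alone, and Gstm7's call with the mean of its probesets. For the difference in response neither the t-test nor that fit was run.

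Leaving out each array gave 3 to 7 lower in wild-type (3 without wild-type TM replicate 3), 11 to 18 lower and 1 to 2 higher in Atf6a-/- animals (2 without Atf6a-/- vehicle replicate 1 or 2 or Atf6a-/- TM replicate 2), 0 to 4 lower under TM and 0 to 1 lower for the difference in response. Animals with the same number did not deviate together in general (correlations of -0.48 to 0.39), and no pairing by number was assumed. With groups of 3 these correlations cannot show that pairing was absent. With the number as a replicate block the counts were 5 lower in wild-type, 13 lower and 1 higher in Atf6a-/- animals and 1 lower under TM. Shares of all genes were computed for the main fit and the fits for Y-linked signal, and not for the other alternatives. Groups of 3 limit what is detectable, most of all for the members that follow Y-linked signal.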
